A study of Mus musculus with 6 samples.

Results

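The genes described here mark eosinophils, basophils and mast cells, and they were followed in erythroblasts sorted from mouse bone marrow. The list has 10 genes: Prg2, Epx, Mcpt8, Cpa3, Ms4a2, Fcer1a, Prss34, Hdc, Il5ra and Gzmb. A probe set was taken when the platform annotation named 1 gene for it and that gene was on the list, which gave 11 probe sets for 9 of the 10 genes, out of 45037 probe sets tested. Prss34, a basophil serine protease, was not analysed here because no probe set carried its symbol. Ms4a2 and Hdc had 2 probe sets each, and the other 7 genes had 1.

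The study compared 3 mice without the miR-144/451 locus (knockout, KO; numbers 493, 548 and 551 in the titles) with 3 wild-type mice (WT; 497, 504 and 550). Marrow cells carrying both Ter119, an erythroid surface antigen, and CD71, the transferrin receptor, were sorted by high forward scatter, which picks large cells, and total RNA of each sample went on 1 Affymetrix array. The labels state no treatment, strain, age, litter or sex, nor how the locus was deleted, and they do not say in words that each number is a separate mouse, so p-values measure the spread between these samples. The gate selects erythroid cells and has no marker against granulocytes.

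Eosinophils, basophils and mast cells are granulocytes of allergic and antiparasitic responses. Eosinophil granules hold cationic proteins and a peroxidase, whereas basophils and mast cells store histamine and proteases and release them when antigen crosslinks IgE bound to their high-affinity receptor FceRI. All of them arise from progenitors that use GATA factors, as red cells do. GATA1 drives both erythroblasts and eosinophils, and GATA2 is needed for mast cells and basophils.

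The locus deleted in the KO mice encodes microRNAs, which repress messages that pair with their seed. Their mature sequences are shown because they define the genotype, with the seed (bases 2 to 8) in capitals, from RefSeq on GRCm38.p6, chromosome 11, plus strand. The mature miR-451a spans 78073186 to 78073207, miR-144-3p 78073047 to 78073066 and miR-144-5p 78073010 to 78073032.
miR-451a: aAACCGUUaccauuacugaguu
miR-144-3p: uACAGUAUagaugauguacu
miR-144-5p: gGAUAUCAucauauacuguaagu
The 3 seeds differ from each other. The array values below are of messenger RNAs, and neither the microRNAs nor their target sites were measured.

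GATA motifs in the promoters give the sequence context of the list. The 250 bases before the transcription start were found in RefSeq (GRCm38.p6) for 9 of the 10 genes, 8 of them measured here. They were searched on both strands for the hexamer AGATAA, for TGATAA, also for AGATAG and for TGATAG, forms that do not overlap in the matches printed. At least 1 match lay in 6 of the 9 promoters (Cpa3, Ms4a2, Fcer1a, Prss34, Hdc and Il5ra), and in 26.5% of 32851 promoter windows of the same length. No match was found in the windows of Epx, Mcpt8 and Gzmb. Printed are the promoters of 3 genes whose arrays are described below, with matches in capitals: Ms4a2, which had the most matches (3), and Cpa3 and Il5ra, which had 1 each. The windows are chr19:11623720-11623969 for Ms4a2, chr3:20242182-20242431 for Cpa3 and chr6:106749038-106749287 for Il5ra, each on the minus strand and written 5′ to 3′.
Ms4a2: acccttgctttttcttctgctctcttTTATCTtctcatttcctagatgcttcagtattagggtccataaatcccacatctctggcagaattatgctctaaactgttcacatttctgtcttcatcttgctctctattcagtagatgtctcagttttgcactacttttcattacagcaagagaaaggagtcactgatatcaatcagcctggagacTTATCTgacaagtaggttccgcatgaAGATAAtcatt
Cpa3: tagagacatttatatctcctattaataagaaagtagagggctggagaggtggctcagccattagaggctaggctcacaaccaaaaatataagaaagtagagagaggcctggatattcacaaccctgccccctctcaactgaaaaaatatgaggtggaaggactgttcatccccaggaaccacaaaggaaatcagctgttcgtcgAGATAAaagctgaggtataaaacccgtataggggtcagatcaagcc
Il5ra: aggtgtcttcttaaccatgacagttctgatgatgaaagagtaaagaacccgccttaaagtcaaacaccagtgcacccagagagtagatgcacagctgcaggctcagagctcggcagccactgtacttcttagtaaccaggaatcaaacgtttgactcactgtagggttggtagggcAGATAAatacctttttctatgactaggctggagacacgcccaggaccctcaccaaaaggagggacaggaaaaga
Counted from the start site, the Ms4a2 matches begin at -224, -37 and -11, the Cpa3 match at -46 and the Il5ra match at -74. A match describes these letters and is not evidence of binding.

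Signals for eosinophil, basophil and mast cell messages were read in sorted erythroblasts, and their means were lower in KO than in WT for each of the 11 probe sets. On the log2 scale the differences, KO minus WT, ran from -1.11 for the eosinophil peroxidase Epx to -0.22 for the granzyme Gzmb, with a median of -0.59, where the median of all probe sets was -0.04. A difference below 0 was found for 56.8% of all probe sets. None of the 11 passed the threshold: limma called 0 at an adjusted p (Benjamini-Hochberg over all probe sets) under 0.05, where 0.355% of all probe sets were called, and the smallest adjusted p was 0.111, for Epx. At an unadjusted p under 0.05, 7 of the 11 were lower in KO, against 12.2% of all probe sets. The 3 KO values lay below the 3 WT values for 5 probe sets (Prg2, Epx, Cpa3, Il5ra and 1 of Ms4a2), against 15.3% of all probe sets, and above them for 0 (10.7% of all probe sets).

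**Figure D1:**
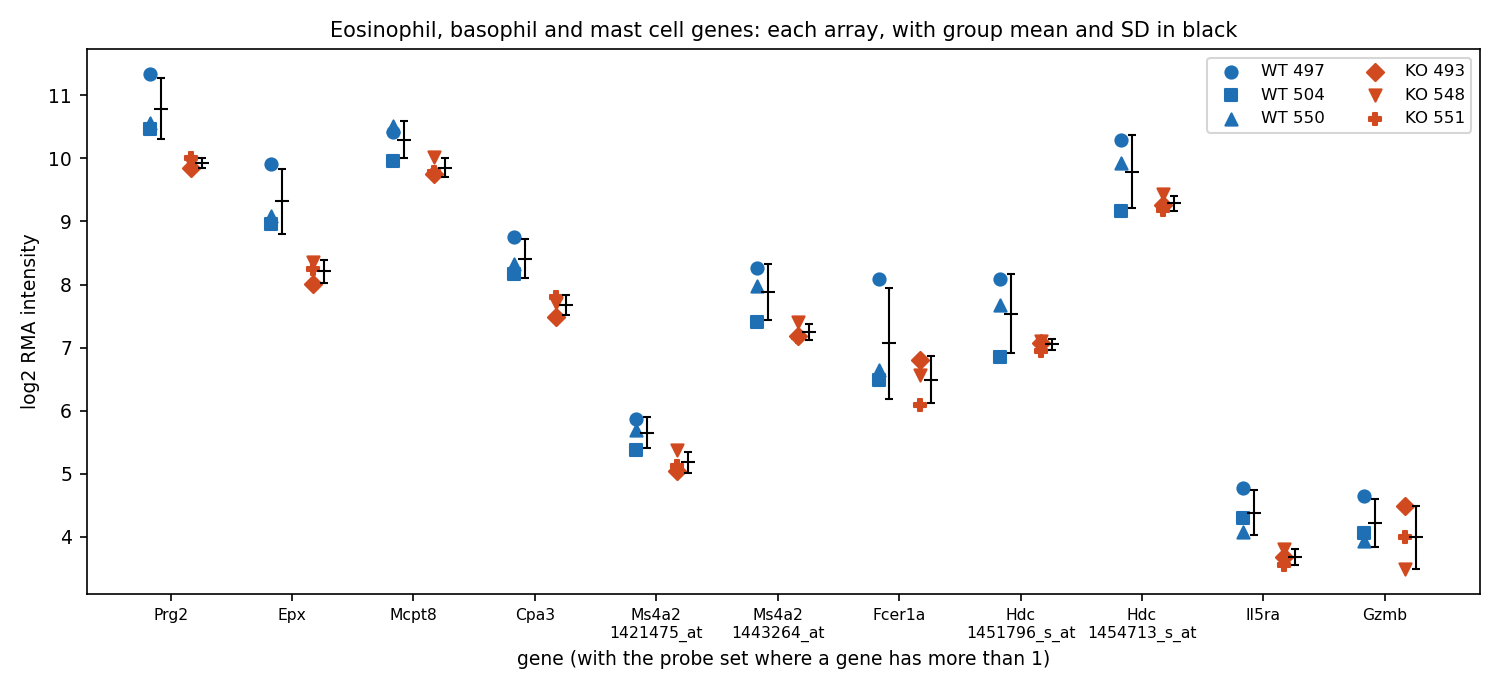
Log2 RMA intensity (vertical axis) of the 11 probe sets in each array, WT in blue and KO in orange, with the mean and SD of each group of 3 in black. WT 497 is the highest point of 10 of the 11 probe sets, and the KO points of Prg2, Epx, Cpa3 and Il5ra lie below all WT points.

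The WT array numbered 497 stood apart for these genes. It held the highest value for 10 of the 11 probe sets, and WT 550 for the remaining one, Mcpt8. Averaged over the 11 probe sets, the deviation from the 6-array mean was 0.77 in WT 497, 0.22 in WT 550, -0.07 in WT 504 and -0.37 to -0.25 in the KO arrays. The other arrays of its genotype did not share that level. WT 497 also held the highest value for 23.6% of all 18193 genes, where its mean deviation was 0.06. Without it, all 11 differences stayed at or below 0, from -0.82 to -0.00, with a median of -0.39, and 4 of the 11 had an unadjusted p under 0.05 (9.44% of all probe sets were lower at that level). The groups were still apart for 5 of the 11, against 20.4% of all probe sets with 3 KO and 2 WT arrays. In bulk RNA, fewer cells of a type and less RNA per cell cannot be told apart.

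The eosinophil granule genes had the largest differences of the list. Prg2 encodes the proform of major basic protein, the cationic core protein of the eosinophil granule, which basophils also make. Its log2 intensities were 11.34, 10.46 and 10.56 in WT arrays 497, 504 and 550 against 9.85 in KO 493 and 9.93 in KO 548, with KO 551 0.15 above KO 493. The KO values lay close together and below every WT value, and WT 497 stood 0.83 above the mean of the other WT arrays. The difference was -0.86 ± 0.23 (SE, n = 3 per group, 95% interval -1.42 to -0.30, limma adjusted p = 0.138), a 1.82-fold lower mean in KO. Without WT 497 it was -0.58.

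Epx encodes eosinophil peroxidase, a haem enzyme that forms hypohalous acids. It read 9.91, 8.96 and 9.09 in WT arrays 497, 504 and 550 against 8.01, 8.36 and 8.25 in KO arrays 493, 548 and 551. The groups did not overlap, the lowest WT array being WT 504 and the highest KO array KO 548. The difference was -1.11 ± 0.26 (SE, 95% interval -1.73 to -0.50, limma adjusted p = 0.111), a 2.16-fold lower mean in KO, and -0.82 without WT 497. Of all probe sets, 0.677% had a difference at or below this one. Among the alternative fits only the one whose variance prior follows the intensity and is robust (the trend fit below) called Epx, at an adjusted p of 0.0439; over the alternatives the adjusted p ran up to 0.23.

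Epx lies on chromosome 11, which also carries the deleted locus, with 152 measured genes between them. Its nearest measured neighbours were the ciliary gene Mks1 at -0.32 ± 0.13 (SE) and Dynll2, a dynein light chain, at 0.38 ± 0.11 (adjusted p 0.235 and 0.153, limma). The related peroxidase gene Lpo, lactoperoxidase, was at -0.16 ± 0.13, with means of 4.05 in KO and 4.21 in WT, under the 25th percentile of every array (4.30 to 4.40). The groups were apart for Mks1 with KO lower and for Dynll2 with KO higher, where 16.2% and 12.5% of all genes were. Any part of the position on chromosome 11 in the Epx difference was not tested.

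Il5ra encodes the ligand-binding chain of the receptor for interleukin 5, the cytokine that supports eosinophil formation. It read 4.78, 4.29 and 4.07 in WT arrays 497, 504 and 550 against 3.68, 3.80 and 3.55 in KO arrays 493, 548 and 551. The groups were apart, but the signal was at the bottom of the scale, since the KO mean of 3.68 lay under the 25th percentile of every array. The difference was -0.70 ± 0.19 (SE, 95% interval -1.16 to -0.25, limma adjusted p = 0.139). With values under 4 raised to 4 it shrank to -0.38.

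Most other eosinophil genes lay on the same side of 0. Of the 5 measured ones outside the list described here, 4 had a difference below 0, with a median of -0.84. The groups were apart with KO lower for 3 (16.2% of all genes), and 3 had an unadjusted p under 0.05 in that direction (12.7% of all genes). Of 8 measured genes of the eosinophil list, of which Prg2, Epx and Il5ra are 3, 7 had a difference below 0 (56.2% of all genes did) and the KO values lay below the WT values for 6, where 16.2% of all genes did. The list median was -0.85, against -0.04 for all genes. Limma called 0 of them (0.385% of all genes were called), 6 had an unadjusted p under 0.05 in the lower direction (12.7% of all genes), and Epx was called with the trend. Prg3, a homologue of major basic protein and the next measured gene to Prg2 on chromosome 2, was at 8.27, 7.54 and 7.64 in WT arrays 497, 504 and 550 against 6.53, 7.05 and 7.02 in KO arrays 493, 548 and 551. All its KO values lay below its WT values, a difference of -0.95 ± 0.24 (SE, adjusted p = 0.123). Slc43a3, the measured neighbour of Prg2 on the other side and a purine transporter, was at -0.22 ± 0.09. The eosinophil ribonuclease Ear3, whose family members are near-identical and may share its probes, was at -0.87, and the eosinophil lectin Siglecf at -0.84. Alox15 was at -0.61 ± 0.56 with overlapping groups. Ccr3, the eotaxin receptor, was the exception at 0.22 ± 0.35, with overlapping groups. Without WT 497 all 8 differences were below 0 and the median was -0.56, and 6 were still apart, where 20.5% of all genes were with 3 KO and 2 WT arrays.

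**Figure D2:**
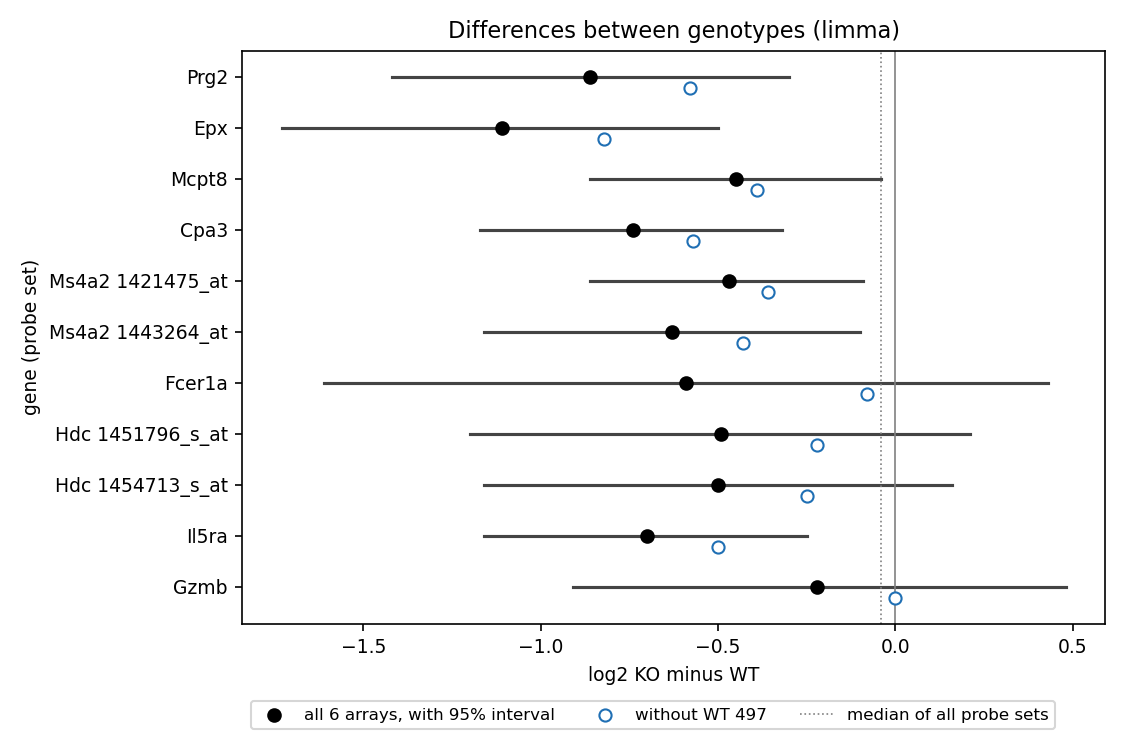
Log2 difference, KO minus WT, for the 11 probe sets, with limma's 95% interval from all 6 arrays (black) and the estimate without WT 497 (open blue circles). All black points lie below 0, from -1.11 for Epx to -0.22 for Gzmb, and the estimates without WT 497 lie nearer to 0.

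Mcpt8, mast cell protease 8, is a serine protease that marks mouse basophils. Its log2 intensities were 10.42, 9.96 and 10.52 in WT arrays 497, 504 and 550 against 9.75, 10.02 and 9.79 in KO arrays 493, 548 and 551. The groups overlapped, as WT 504 lay below KO 548, and WT 497 was not the highest array. The difference was -0.45 ± 0.17 (SE, 95% interval -0.86 to -0.04, limma adjusted p = 0.224), and -0.39 without WT 497. For this gene the WT 497 value was only 0.18 above the mean of the other WT arrays.

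Mcpt8 and Gzmb lie in a cluster of mast cell protease and granzyme genes on chromosome 14, whose measured genes run from Cma1 to Gzmb. Gzmb encodes granzyme B, a protease of cytotoxic lymphocytes that mast cells and basophils can also make. It read 4.64, 4.06 and 3.93 in WT arrays 497, 504 and 550 against 4.49, 3.49 and 4.0 in KO arrays 493, 548 and 551. These signals lay near the bottom of the scale and overlapped throughout, with group means of 4.21 and 3.99 under the 25th percentile of every array. Its difference of -0.22 ± 0.29 (SE, 95% interval -0.91 to 0.48, limma adjusted p = 0.724) was the only one to change sign in any fit, to 0.03 without KO 548. Of the 14 measured genes of the cluster, the KO and WT values were apart for 2, Ctsg and Mcpt4, both lower in KO, a share of 14.3% where 16.2% of all genes were. Ctsg, cathepsin G of neutrophil granules and the next measured gene to Mcpt8, was at -0.58 ± 0.20 (adjusted p = 0.195), and Mcpt4, a chymase of connective tissue mast cells, at -0.57 ± 0.18 (adjusted p = 0.167), with means of only 2.52 in KO and 3.09 in WT. The others ran from -0.45 for Mcpt8 to 0.37 for Gzme.

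The IgE receptor is built from an alpha chain that binds IgE (Fcer1a), a beta chain that amplifies the signal (Ms4a2) and a shared gamma chain (Fcer1g). Fcer1a read 8.08, 6.49 and 6.65 in WT arrays 497, 504 and 550 against 6.81, 6.56 and 6.09 in KO arrays 493, 548 and 551. Only WT 497 was high: it lay 1.51 above the mean of the other WT arrays, both of which fell within the KO range. That gap is the widest of the 11 probe sets. The difference of -0.59 ± 0.43 (SE, 95% interval -1.61 to 0.43, limma adjusted p = 0.488) became -0.08 without that array.

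The brighter Ms4a2 probe set read 8.27, 7.40 and 7.97 in WT arrays 497, 504 and 550 against 7.19, 7.40 and 7.16 in KO arrays 493, 548 and 551. WT 504 equalled KO 548, and the other WT arrays lay above all KO arrays. The difference was -0.63 ± 0.22 (SE, limma adjusted p = 0.199). The dimmer probe set gave -0.47 ± 0.16 (adjusted p = 0.19), with WT values of 5.87, 5.38 and 5.70 just above KO values of 5.04, 5.37 and 5.12. Both probe sets of Ms4a2 thus gave the same direction, at -0.43 and -0.36 without WT 497. Fcer1g, which other Fc receptors of myeloid cells also use, was at -0.34 ± 0.14 (adjusted p = 0.244), with all KO values below the WT values.

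Signalling genes downstream of the receptor, which B cells, T cells and other myeloid cells also use, lay lower as well. The list of 15 measured genes holds the 3 receptor chains described above, of which Fcer1a and Ms4a2 are among the 9 genes. Of the 12 others, 11 had a difference below 0 (56.2% of all genes did), with a median of -0.46, and the groups were apart with KO lower for 10 (16.2% of all genes). Limma called 0 of the 15, none was called with the trend, and 6 of the 12 passed an unadjusted 0.05 in the lower direction (12.7% of all genes). The lipase Plcg2 was at -0.83 ± 0.21 (SE, adjusted p = 0.123) and the exchange factor Vav1 at -0.60 ± 0.18 (adjusted p = 0.157). The inositol phosphatase Inpp5d, a brake on the pathway, was at 0.16 ± 0.13. WT 497 was highest for 9 of the 12 genes. Without it 10 of the 12 were still apart (20.5% of all genes) and the median was -0.32, but only 2 had an unadjusted p under 0.05 and a lower value in KO, where 9.06% of all genes did. Without KO 548 that count was 3 (9.2% of all genes).

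Cpa3, carboxypeptidase A3 of mast cell and basophil granules, read 8.76, 8.16 and 8.32 in WT arrays 497, 504 and 550 against 7.49, 7.71 and 7.81 in KO arrays 493, 548 and 551. The groups did not overlap. The difference was -0.74 ± 0.18 (SE, 95% interval -1.17 to -0.32, limma adjusted p = 0.119), a 1.67-fold lower mean in KO, and -0.57 without WT 497. Its nearest measured neighbours on chromosome 3 lay close to 0. The glycogenin gene Gyg was at -0.10 ± 0.11 and the pancreatic carboxypeptidase Cpb1, at the bottom of the scale, at 0.03 ± 0.42.

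Hdc encodes histidine decarboxylase, the enzyme that makes histamine. Its brighter probe set read 10.29, 9.16 and 9.93 in WT arrays 497, 504 and 550 against 9.26, 9.43 and 9.19 in KO arrays 493, 548 and 551. WT 504 lay below every KO array, so the groups overlapped. The differences were -0.50 ± 0.28 and -0.49 ± 0.30 (SE) for the 2 probe sets (limma adjusted p 0.363 and 0.399), and -0.25 and -0.22 without WT 497. The WT spread was wide, with an SD of 0.58 against 0.12 in KO for the brighter probe set.

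The basophil list mostly repeats the genes above, since 5 of its 9 measured genes (Cpa3, Ms4a2, Mcpt8, Hdc and Fcer1a) are among the 9. Of these 9 basophil genes 8 were below 0, with a median of -0.50. The groups were apart for 2, a share of 22.2% where 16.2% of all genes were: Cpa3 and Cd200r3, an activating receptor of basophils and mast cells, at -0.99 ± 0.27 (SE, adjusted p = 0.138). The dimmer Cd200r3 probe set was at -0.30 ± 0.28 with overlapping groups. The list otherwise adds the genes of 3 cytokines, all with overlapping groups: Il4 at -0.36 ± 0.21, Il6 at -0.18 ± 0.22 and Il13 at 0.11 ± 0.22.

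Of 13 measured mast cell genes, 3 of which (Cpa3, Hdc and Gzmb) are among the 9, 9 were below 0, the median was -0.13 and 3 were apart (16.2% of all genes). On this list 5 genes were at the bottom of the scale in both groups, under the 25th percentile of every array: Gzmb, Tpsab1, Mcpt4, Mcpt1 and Mrgprb1. Of the 10 mast cell genes outside the 9, 6 were below 0, with a median of -0.11, and 2 were apart. Mitf, a transcription factor of mast cells also used elsewhere, was at -0.56 ± 0.15 (adjusted p = 0.133), and its other probe set at -0.27 ± 0.11. Limma called 0 genes of either list, and none was called with the trend. An unadjusted 0.05 in the lower direction was passed by 4 of the 9 basophil genes, of which only Cd200r3 is outside the 9 described, and by 3 of the 13 mast cell genes, where 12.7% of all genes passed. Leaving out 1 array gave 2 to 6 basophil genes (22.2% to 66.7%; 2 without WT 497, WT 550, KO 493 or KO 551). It gave 2 to 4 mast cell genes (15.4% to 30.8%), where 9.06% to 13.7% of all genes passed. Without WT 497 the medians were -0.25 and -0.12. With each array centred on its median they were -0.39 and -0.02, for the basophil and mast cell lists.

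**Figure D3:**
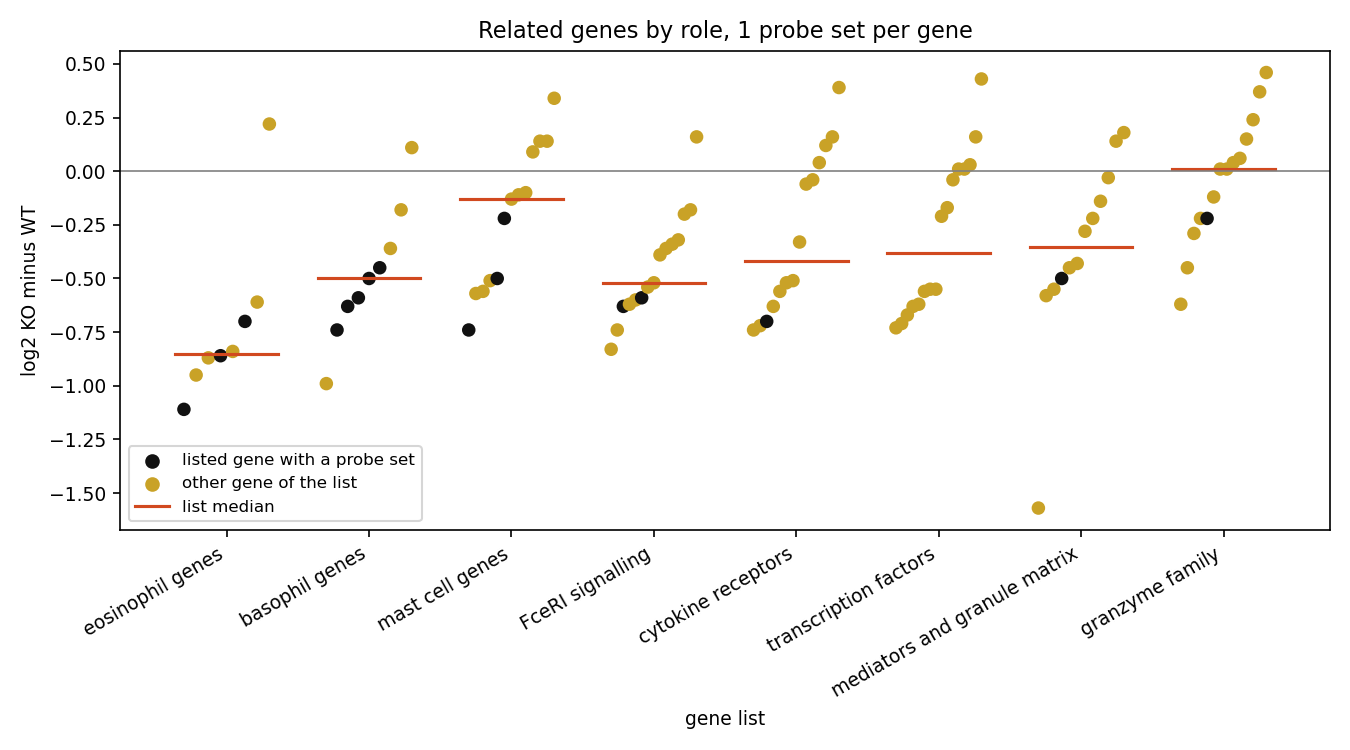
Log2 difference, KO minus WT (vertical axis), for each gene of 8 lists, 1 probe set per gene; black points are genes of the list described here and red lines are list medians. The medians run from -0.85 for eosinophil genes to 0.01 for the granzyme family, and the lists share genes.

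Cytokine receptors and their kinases gave mixed values. Of 14 measured genes 10 were below 0, with a median of -0.42, 4 were apart in the lower direction (16.2% of all genes), and limma called 0; 4 passed an unadjusted 0.05 in that direction (12.7% of all genes). With the trend 1 was called, Ifngr1, the ligand-binding chain of the interferon gamma receptor, at -0.63 ± 0.11 (SE; limma adjusted p = 0.07). The filter on dim probe sets, which keeps those at or above the median level, also called Ifngr1. Crlf2, the receptor for the cytokine TSLP, which acts on basophils, was at -0.74 ± 0.18 (adjusted p = 0.123). Csf2ra was at -0.72 ± 0.19 (limma adjusted p = 0.137) and at -0.66 ± 0.20 by its dimmer probe set. For both probe sets of Csf2ra all KO values lay below the WT values. Csf2rb, the beta chain that signals for the receptors of interleukin 3, interleukin 5 and GM-CSF, was at -0.56 ± 0.28 with overlapping groups, and its paralogue Csf2rb2, which serves interleukin 3 and can share probes with it, at 0.39 ± 0.36. The kinase Jak2, which red cells need for erythropoietin signalling, was at -0.06 ± 0.11. Without WT 497 the median of the 14 was -0.20, 5 had an unadjusted p under 0.05 in the lower direction (9.06% of all genes) and 5 were apart (20.5%).

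GATA factors are shared between the red cell and granulocyte lineages. Gata1 was at 12.45 ± 0.04 (SD, n = 3) in KO and 12.44 ± 0.05 in WT, a difference of 0.01 ± 0.09 (SE, adjusted p = 0.966). Gata2, of mast cells, basophils and early progenitors, read 8.79, 7.81 and 8.56 in WT arrays 497, 504 and 550 against 7.82, 7.95 and 7.26 in KO arrays 493, 548 and 551. Its groups overlapped through WT 504, and the difference was -0.71 ± 0.29 (adjusted p = 0.245), or -0.79 ± 0.22 (adjusted p = 0.148) by the dimmer probe set. Of 16 measured transcription factors of these lineages 11 were below 0, with a median of -0.38, 6 were apart in the lower direction (16.2% of all genes), and limma called 0; 7 had an unadjusted p under 0.05 in that direction (12.7% of all genes) and 1, Runx1 at 0.43 ± 0.17, in the other (8.34% of all genes). The Runx1 groups overlapped. Its other probe sets gave 0.34, 0.42, -0.06, -0.02 and -0.21, the last with groups apart and KO lower. Among the factors apart in the lower direction, Cebpa was at -0.73 ± 0.21 and Spi1 at -0.62 ± 0.24. Gfi1, a repressor used in granulocyte and progenitor differentiation, was at -0.67 ± 0.14 (adjusted p = 0.097); the filter on dim probe sets called it and the trend fit called 0. Without WT 497 the median was -0.25, and 5 had an unadjusted p under 0.05 and a lower value in KO (9.06% of all genes); without WT 550 or KO 493 4 did.

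Genes of granule matrix and lipid mediators had a median of -0.35 over 12 measured, with 10 below 0, 4 apart in the lower direction (16.2% of all genes) and 1, the amine transporter Slc18a2, apart in the higher (12.5% of all genes) at 0.18 ± 0.10. Limma called 0, 4 passed an unadjusted 0.05 in the lower direction (12.7% of all genes), and none was called with the trend. Ptgs2, the inducible cyclooxygenase, was at -1.57 ± 0.51 (SE, adjusted p = 0.178), with overlapping groups, a KO mean of 3.22 under the 25th percentile of every array and -0.39 ± 0.21 by its other probe set. Alox5, the enzyme that starts leukotriene synthesis, was at -0.55 ± 0.19 (adjusted p = 0.186), with all KO values below the WT values. Without WT 497 the list median was -0.25. An unadjusted p under 0.05 in the lower direction was left for 1 gene (8.33%) without WT 497 or WT 550, where 9.06% and 9.74% of all genes had one. It was left for 2 (16.7%) without KO 493 or KO 551, where 9.32% and 9.88% of all genes had one. The granzyme family list, with the granule proteins and activators of cytotoxic cells, had a median of 0.01 over 14 genes, 6 below 0. Limma and the trend fit called 0 of them. Serpinb9, an inhibitor of granzyme B, was at 0.46 ± 0.12 (adjusted p = 0.139) and Ctsc, the peptidase that activates granzymes and Ctsg, at -0.45 ± 0.17 (adjusted p = 0.217). They were the 2 genes with an unadjusted p under 0.05, 1 in each direction. That is a share of 7.14% each, where 8.34% of all genes were higher and 12.7% lower at that level.

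Markers of most other blood cells were also lower in KO. Summed as the mean level of the list, the values of 13 neutrophil genes were 11.23 to 11.58 in KO and 11.68 to 11.92 in WT, with 13 of 13 differences below 0. Those of 12 B lineage genes were 8.48 to 8.83 and 8.93 to 9.58, with 11 below 0, and those of 13 T and NK genes 5.80 to 6.18 and 6.25 to 6.88, with 11 below 0. Those of 14 macrophage and monocyte genes were 8.50 to 8.58 and 8.72 to 9.10, with 12 below 0, and those of 11 progenitor genes 7.29 to 7.40 and 7.77 to 7.87, with 11 below 0. The KO and WT ranges did not overlap for any of these 5 lists. Nor did they for the erythroid list (11.27 to 11.33 in KO and 11.47 to 11.55 in WT) or the mast cell list (5.28 to 5.35 and 5.40 to 5.60), so ranges that lie apart are not particular to the other blood cells. The basophil ranges overlapped, at 6.60 to 6.83 in KO and 6.77 to 7.52 in WT. The eosinophil ranges lay apart, at 7.31 to 7.52 in KO and 7.87 to 8.55 in WT. The array medians over all probe sets lay apart too, at 5.62 to 5.68 in KO and 5.73 to 5.78 in WT. That offset was not removed from these ranges. For 9 megakaryocyte genes the ranges overlapped, at 8.80 to 9.12 in KO and 8.87 to 8.96 in WT, with 4 below 0. No defining marker of the neutrophil, macrophage, B, T and NK, megakaryocyte or progenitor lists lay under the 25th percentile of the arrays in both groups. The 9 measured genes described here had ranges of 7.32 to 7.41 in KO and 7.66 to 8.50 in WT.

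List medians were -0.63 for the 9 genes, -0.58 for B lineage, -0.52 for progenitor, -0.40 for T and NK, -0.36 for neutrophil, -0.25 for macrophage and monocyte and 0.04 for megakaryocyte genes. With each array centred on its median they were -0.52, -0.47, -0.41, -0.29, -0.25, -0.14 and 0.15 in the same order. The median of all probe sets was then 0.07. WT 497 was also the highest array for 9 of 13 neutrophil, 9 of 12 B lineage and 9 of 13 T and NK genes, while WT 504 was highest for 8 of 14 macrophage and monocyte genes. Without WT 497 the medians were -0.43 for the 9 genes and -0.43, -0.55, -0.17, -0.22, -0.39 and 0.05 for the others in the same order. Limma called 0 genes of these lists, and the trend fit called 3, all of them progenitor genes and lower: Cd34, Myb and Erg. The filter on dim probe sets called 2 of these, Cd34 and Erg. At an unadjusted p under 0.05, 8 B lineage, 5 progenitor, 3 T and NK, 4 neutrophil, 6 macrophage and monocyte and 0 megakaryocyte genes were lower, against 12.7% of all genes. These counts turned on single arrays. The B lineage count was 1 without KO 548, 2 without KO 551 and 3 without WT 497, and the neutrophil count was 0 without WT 550 and 2 without WT 497, WT 504 or KO 493. The macrophage and monocyte count was 3 without WT 497, KO 548 or KO 551, the T and NK count 1 without KO 548 and the progenitor count 3 without KO 493. Some counts also rose. The neutrophil count was 6 without KO 548, the progenitor count 6 without WT 497 or WT 504, and the T and NK count 4 without WT 504 or KO 493. Without 1 array, 9.06% to 13.7% of all genes were lower at that level. For the 2 genes of each list with the smallest p, the differences were -0.86 for the neutrophil elastase gene Elane and -0.58 for Ctsg, -0.63 for the growth factor receptor Csf1r and -0.81 for the transglutaminase chain F13a1, -0.54 for the surrogate light chain Igll1 and -0.64 for the B cell factor Ebf1, 1 of whose 5 probe sets gave 0.46. They were -1.02 for the cytotoxic granule gene Nkg7 and -0.40 for the T-box factor Eomes, and -0.65 for Erg and -0.61 for Hlf, both factors of stem and progenitor cells. For the integrin genes Itgb3 and Itga2b of megakaryocytes they were -0.28 and 0.24. The part of these cells in the lower values of the eosinophil, basophil and mast cell genes was not tested.

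**Figure D4:**
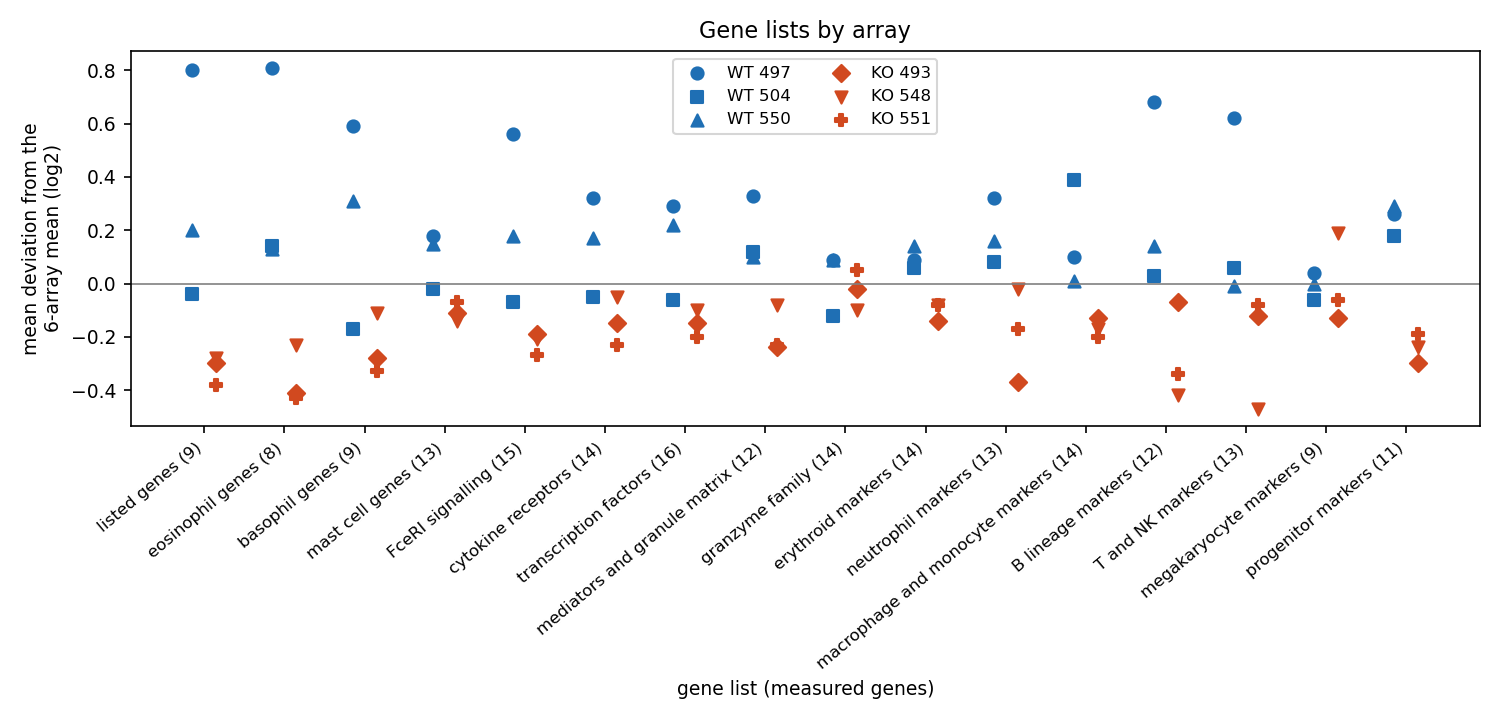
Mean deviation from the 6-array mean (log2, vertical axis) of the genes of each list, by array, WT in blue and KO in orange; the number of measured genes stands beside each list. WT 497 is highest for the listed genes (0.80), the eosinophil (0.81), basophil (0.59), B lineage (0.68) and T and NK (0.62) lists, and the erythroid points stay within -0.14 to 0.14.

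Erythroid markers were present in all arrays: 13 of 14 measured erythroid markers lay above the 25th percentile, the exception being the probe set of Hba-a1. Their median difference was -0.13, with 13 of 14 below 0, and the groups were apart with KO lower for 8 (16.2% of all genes). With each array centred on its median, the median difference was -0.02 and 9 of 14 were below 0. Tfrc, which encodes the CD71 used in the sort, was at 12.94 ± 0.01 (SD, n = 3) in KO and 12.98 ± 0.02 in WT. The membrane skeleton genes Sptb and Epb42 were at -0.56 ± 0.20 and -0.27 ± 0.10 (SE; limma adjusted p 0.194 and 0.205), though the dimmer probe set of Sptb gave 0.37 ± 0.19. The dimmer probe set of Epb42 gave -0.60 ± 0.11 (limma adjusted p = 0.0792), with all KO values below the WT values. Limma and the trend fit called 0 erythroid markers; 2 had an unadjusted p under 0.05, a share of 14.3% where 12.7% of all genes were lower at that level, and 0 or 1 did when an array was left out (0 without WT 497). The actin control, the 3′ minus the 5′ signal, which reads RNA integrity and labelling, ranged from 1.65 to 1.67 over WT arrays and from 1.82 to 1.86 over KO arrays; for Gapdh the ranges were 1.03 to 1.09 and 1.0 to 1.05. Its part in the differences was not tested.

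Within an array, members can be compared with each other free of any shift common to both. These 6 pairs were chosen after the values were seen. Epx minus Mcpt8 was -0.51, -1.0 and -1.43 in WT arrays 497, 504 and 550 against -1.74, -1.66 and -1.54 in KO arrays 493, 548 and 551. The KO values lay below all WT values, with a mean difference of -0.67, and the exact two-sided permutation p was 0.1, the smallest that 3 against 3 can give (adjusted p over 6 pairs 0.2). Epx minus Prg2 was nearly constant in WT, at -1.43, -1.50 and -1.47, and lower in KO, at -1.84, -1.57 and -1.75 (mean difference -0.25, exact permutation p = 0.1, adjusted 0.2). For Epx minus Cpa3 the groups did not overlap either, with a mean difference of -0.37 (exact permutation p = 0.1, adjusted 0.2). All pairs with groups apart hold Epx, which had the largest difference of the list, so they do not count as separate results. For Prg2 minus Mcpt8 (-0.41), Cpa3 minus Mcpt8 (-0.30) and Prg2 minus Cpa3 (-0.12) the groups overlapped. Without WT 497 Epx minus Mcpt8 was -0.43, Prg2 minus Mcpt8 -0.20, Cpa3 minus Mcpt8 -0.18 and Prg2 minus Cpa3 -0.01, while Epx minus Cpa3 was -0.25 and Epx minus Prg2 -0.23. Without WT 550 Prg2 minus Mcpt8 was -0.64. No pair can pass a threshold of 0.05 in this design.

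**Figure D5:**
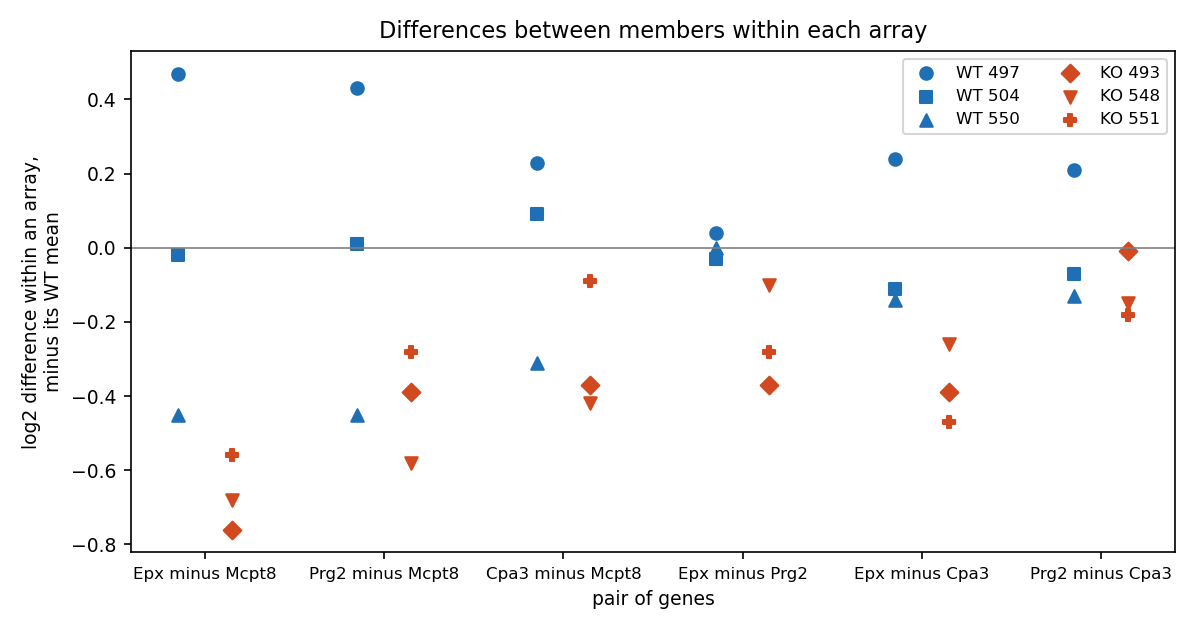
Log2 difference between 2 genes within each array, minus the WT mean of that pair (vertical axis), for 6 pairs, WT in blue and KO in orange. The KO points of the 3 pairs that start with Epx lie below all WT points, and those of the other pairs overlap with WT.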

How the data were processed

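The deposited values were probe-set intensity values on a linear scale, made by the authors with RMA, per the submitters' processing notes, which give no version; its background step is not given in the sources used here. RMA forces arrays toward 1 distribution, so a shift of most transcripts would be partly removed. All of them (100%), within rounding, were powers of 2 whose exponents have 2 decimals, and were taken back to log2, with no pseudocount or further normalization. Of 45101 probe sets, 64 controls were left out. Between any 2 arrays at most 1.62% of values were equal.

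Genes were named by GEO's platform annotation (34958 probe sets with 1 gene, 932 with several, 9160 tested ones without a name here) with symbols updated through RefSeq; in list counts each of 18193 genes has its probe set with the highest mean. KO and WT were compared with limma 3.58.1 (R 4.3.3; lmFit, eBayes, no covariate), Benjamini-Hochberg adjusted over 45037 probe sets, threshold 0.05, and the fit was tested on simulated data. SEs are limma's. Array number limits the precision. The genes, lists and rule were chosen with earlier results of these data known. The rule names every member and, per list, called genes or otherwise the 2 smallest p, plus Tfrc. Neighbours were named by position. Fcer1g, Inpp5d, Csf2rb, Csf2rb2, Jak2, Gata1, Gata2, Runx1, Slc18a2, Ear3, Siglecf, Alox15, Ccr3, Cd34 and Myb were chosen after their values were seen. So were Csf2ra, Cebpa, Spi1, Il4, Il6 and Il13, and, named for their low signal, Tpsab1, Mcpt1, Mrgprb1 and Hba-a1. Alternatives changed normalization, variance prior, filter, floor, block, probe-set averaging and arrays.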

Additional observations from a re-analysis of the deposited data

Results flagged for a closer look

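The actin control probe sets, which lie outside the comparison of the genes, gave a 3′ minus 5′ signal that was on average 0.18 (log2) higher in KO than in WT, and every KO array lay above every WT array. In groups of 3 no array can be tested as an outlier.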

How the results depend on the processing

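The 11 differences stayed below 0 in every alternative that kept the probe set, except Gzmb, which ran from -0.46 to 0.03 when 1 array was left out and passed 0 without KO 548. The number called lower was 0 in every alternative but 1, the variance prior with an intensity trend, which called 1 (Epx), and the number called higher was 0 throughout. Leaving out 1 array gave medians of -0.84 to -0.39 and 0 calls (0 to 0 in each direction). It left 4 to 9 of the 11 lower at an unadjusted p under 0.05 (4 without WT 497, WT 550, KO 493 or KO 551). Of all probe sets, 8.89% to 12.2% were lower at that level. The groups were apart with KO lower for 5 to 9 (9 without WT 504), against 20% to 23.3% of all probe sets (23.3% without WT 504). Counting these was chosen after seeing the data. Centring arrays on their medians moved the median of all probe sets by 0.11 and the median of the 11 to -0.48. The number of all probe sets called was 160, but 411 with centring, 1592 with the trend, 1015 with the filter on dim probe sets, 664 with the floor, 17 with a block for low against high numbers and 8 to 23 without 1 array. No paired analysis was possible because the groups share no replicate number. Signals near the bottom of the scale limit Il5ra and Gzmb.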
